A study of Mus musculus with 6 samples.

Results

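The 9 genes described here encode the first steps of interferon signalling: the cytokine interferon beta (Ifnb1), both chains of the type I receptor (Ifnar1 and Ifnar2), both chains of the interferon gamma receptor (Ifngr1 and Ifngr2), the Janus kinases Jak1, Jak2 and Tyk2, and the transcription factor Stat2. They were taken by symbol from a table of 23413 genes, and all 9 were among the 10724 genes with enough counts to be tested. RNA-seq was made of alveolar macrophages, phagocytes that live on the lung surface, from mice labelled WT. One group of cells received LPS (lipopolysaccharide of bacterial membranes, sensed through Tlr4) in vitro at 100 ng/mL for 4 h, and another received this LPS together with vitamin D3 (VD3) at 50 nM. The remaining group is labelled Control. Its culture time and vehicle, and the strain, age and number of mice, are not stated in the sources used here. Each group had 2 libraries. Nothing in the labels says that they came from separate mice or cultures, so a p-value here speaks of how these libraries vary, and that variation may be technical only.

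Interferon beta is the type I interferon that macrophages make first when Tlr4 signals through its adaptor Ticam1 and the kinase Tbk1 to the transcription factor Irf3. It binds a receptor made of the Ifnar1 and Ifnar2 chains, which carry the kinases Tyk2 and Jak1, and these phosphorylate Stat2. Complexes of Stat2 with Irf9 bind interferon-stimulated response elements. Interferon gamma binds a separate receptor, whose ligand-binding chain Ifngr1 carries Jak1 and whose partner chain Ifngr2 carries Jak2. Jak2 also serves other receptors, among them that of GM-CSF, the growth factor on which alveolar macrophages depend.

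Total counts were between 5022314 and 5465223 per library. All 10 alveolar macrophage markers in the table were detected, at a summed level of 7323 and 7469 CPM (counts per 1000000 of the TMM-scaled library total) in control and 9751 to 12250 in the treated libraries. Of the 10, 4 were higher in every treated library than in both control libraries (Marco, Car4, Itgax and Fabp4) and 6 lower (Siglec5, Ear1, Ear2, Pparg, Mrc1 and Mertk). Some markers of other cells were at 0 in every library, such as Cd3e, Ncr1, Mpo and Sftpc, and Siglech of plasmacytoid dendritic cells had 1 count in all. Others were present: S100a8 of neutrophils had 60 to 96 counts per library and Cd8a of lymphocytes 5 to 11. Both, with Ccr9 and Bst2 of the plasmacytoid list, were higher in every treated library than in both control libraries. The summed neutrophil list was at 11.65 and 9.62 CPM in control and 13.75 to 20.3 in the treated libraries. The lymphocyte list was at 1.20 and 1.92 CPM in control and 2.09 to 2.46 in the treated libraries. The plasmacytoid dendritic cell list, which holds the interferon target Bst2, was at 28.4 and 26.0 CPM in control and 35.0 to 78.0 in the treated libraries. The lung epithelium list was at 222.5 and 239.5 CPM in control and 32.0 to 53.0 in the treated libraries, nearly all of it Cdh1, and the monocyte list at 10.1 and 11.7 CPM in control and 181 to 368 in the treated libraries. Within the monocyte list Vcan went from 3.43 and 3.69 CPM in control to 181 to 366 in the treated libraries, and Ccr2 from 5.65 and 7.69 CPM to between 0.199 and 1.01. The part of these marker changes in the results was not tested. In bulk RNA, fewer cells with a transcript and less transcript per cell cannot be told apart. The LPS libraries differed from each other more than the libraries of the other groups did (Pearson's r across genes, on the log2 CPM scale, was 0.969, against 0.991 in control and 0.981 in LPS + VD3). Their difference ran with the GC content of transcripts (Spearman's rho across genes -0.682 for LPS 2 minus LPS 1), so values are given by library throughout. The sample title of LPS 1 is numbered apart from those of the other libraries, and what this stands for is not stated in the sources used here.

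Sequences before the start sites of the genes were read for letters known from this pathway, since several of these genes are themselves interferon or NF-kB targets in textbooks. In the 250 bases before each RefSeq start (GRCm38.p6, 1 start for each of the 9 genes), 5 motifs were searched on both strands. The response element core, GAAA and GAAA with 2 bases between them, is held by 2.98% of all 32851 promoters of this length and was found before Stat2. The NF-kB letters, GGGA and TTCC with 2 bases between them (1.21% of promoters), were found before Ifnb1 and Ifngr2, and the gamma-activated site letters TTCNNNGAA (7.02%) before Ifnar2. The AP-1 letters TGANTCA (6.75%) and the vitamin D receptor repeat, NGNTCA and NGNTCA with 3 bases between them (0.545%), were found before none of the 9. After reading the Ifnb1 promoter, a shorter site of interferon regulatory factors, AANNGAAA, was added. It overlaps the response element core, stands in 21.3% of promoters and occurs 3 times before Ifnb1 and 2 times before Stat2. The 4 stretches that hold these letters are shown 5′ to 3′ on the strand of the gene, with the matched letters in capitals (in Stat2 those of the response element core only).
Ifnb1: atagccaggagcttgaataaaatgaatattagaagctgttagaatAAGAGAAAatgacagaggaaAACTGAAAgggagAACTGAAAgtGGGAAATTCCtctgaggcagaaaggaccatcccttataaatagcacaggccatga
Stat2: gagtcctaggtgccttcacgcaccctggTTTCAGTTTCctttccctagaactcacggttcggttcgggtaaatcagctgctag
Ifngr2: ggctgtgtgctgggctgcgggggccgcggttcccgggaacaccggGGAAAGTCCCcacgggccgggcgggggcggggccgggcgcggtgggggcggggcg
Ifnar2: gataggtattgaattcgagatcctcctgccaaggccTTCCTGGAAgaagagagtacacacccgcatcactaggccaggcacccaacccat
The Ifnb1 stretch is chr4:88522856-88522998 on the minus strand, with the shorter sites at -159 to -152, -139 to -132 and -126 to -119 and the NF-kB letters at -116 to -107, counted back from the start. These closely spaced letters belong to the well-known virus-inducible element of this gene. The Stat2 stretch is chr10:128270248-128270330 on the plus strand, with the core at -222 to -213 and the shorter sites, which overlap it, at -222 to -215 and -216 to -209. The Ifngr2 stretch is chr16:91546939-91547038 and the Ifnar2 stretch chr16:91372533-91372622, both on the plus strand. A match is a description of letters and not a shown site, and none was found before Jak2, whose upstream bases were 80.8% G or C, the highest share of the 9.

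The first comparison, LPS against control, asked how these genes stood 4 h after LPS. Ifnb1 appeared, Jak2 and Stat2 rose several-fold, both type I receptor chains rose together, and the interferon gamma receptor chains went in opposite directions. Of the 9 genes 7 rose and 1 fell by edgeR's quasi-likelihood test with Benjamini-Hochberg adjustment at 0.05, where 31.8% of all genes tested changed, 15.7% upward and 16.2% downward. For all 9 the libraries of both groups did not overlap, beside 65.2% of all genes tested. Their median log2 fold change was 1.33, beside 0.01 over all genes tested. Without scaling beyond library size the median of all genes shifts by -0.289 and the upward share of all calls goes from 49.2% to 26.2%, so changes near that size rest on the scaling.

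Interferon beta transcripts were detected in the treated libraries only. Ifnb1 had 0 counts in both control libraries, 18 and 12 counts with LPS and 6 and 4 counts with LPS + VD3. On the CPM scale this was 3.69 and 2.43 after LPS and 1.26 and 0.796 after LPS + VD3. All 4 treated libraries held Ifnb1 reads, and the control libraries held none. The 0 of 10477269 control counts allow up to 3 counts, or 0.248 CPM. Against that floor over both control libraries, the observed Ifnb1 level after LPS was 12.3-fold higher (adjusted p = 0.0011 in the edgeR fit). The exact 95% counting interval, which also holds the error of the LPS counts, started at 9.40-fold. This floor, like each counting interval given for Ifnb1, holds counting error alone and leaves out the spread between libraries. Both take counts as independent, which fails where PCR copies of a molecule are counted more than once. Of 22 other interferon ligands and chains of the lambda receptor listed, 20 were in the table and 14 of these, among them Ifna4, Ifng, Ifnl2 and Ifnl3, had no count in any library. Ifna2 and Ifna6 had 1 count each, Ifnz 6 and Ifnk 20 over all 6 libraries. Ifnlr1, the specific chain of the interferon lambda receptor, had 8 and 8 counts in control and 1 to 5 in each treated library. The 1 gene of this list with enough counts to test was Il10rb, the chain shared by the receptors of interferon lambda and interleukin-10.

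The type I receptor chains rose in parallel. Ifnar1 was at 77.8 and 79.2 CPM (control), 195 and 210 CPM (LPS) and 177 and 188 CPM (LPS + VD3). Ifnar2 was at 43.7 and 44.4 CPM (control), 111 and 111 CPM (LPS) and 110 and 118 CPM (LPS + VD3). For both chains every treated library was above every control library, and the libraries within each group lay close together. After LPS the log2 fold change was 1.37 ± 0.15 for Ifnar1 (SE; edgeR adjusted p = 6.22e-05) and 1.33 ± 0.15 for Ifnar2 (edgeR adjusted p = 9.18e-05). Divided by exon length, the levels of the chains stayed close to each other: the ratio of Ifnar1 to Ifnar2 was 0.998 and 1.00 (control), 0.984 and 1.06 (LPS) and 0.901 and 0.893 (LPS + VD3). Of the exon length of Ifnar2, 9.46% overlaps a second annotated gene model on the same strand, Gm21970, so a small part of its count is uncertain.

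The transcripts of the interferon gamma receptor chains diverged. Ifngr1 was at 64.6 and 58.5 CPM (control), 29.6 and 33.6 CPM (LPS) and 36.6 and 31.1 CPM (LPS + VD3). All treated libraries were below both control libraries, by a log2 fold change of -0.96 ± 0.18 after LPS (edgeR adjusted p = 0.00216). Ifngr2, the signalling chain, was at 92.3 and 86.4 CPM (control), 129 and 124 CPM (LPS) and 120 and 121 CPM (LPS + VD3), and rose by 0.50 ± 0.15 (edgeR adjusted p = 0.0237). Its call is less firm. It was lost without scaling (log2 fold change 0.21, adjusted p = 0.29), without control 1 or 2 (0.168 and 0.268) and without LPS + VD3 2 (0.0506). It was lost in both limma fits of the deposited log2 values too (0.266 and 0.267). Per exon length the ratio of Ifngr2 to Ifngr1 was 1.08 and 1.12 (control), 3.30 and 2.80 (LPS) and 2.48 and 2.94 (LPS + VD3), so the ratio was higher in every treated library than in both control libraries.

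**Figure D1:**
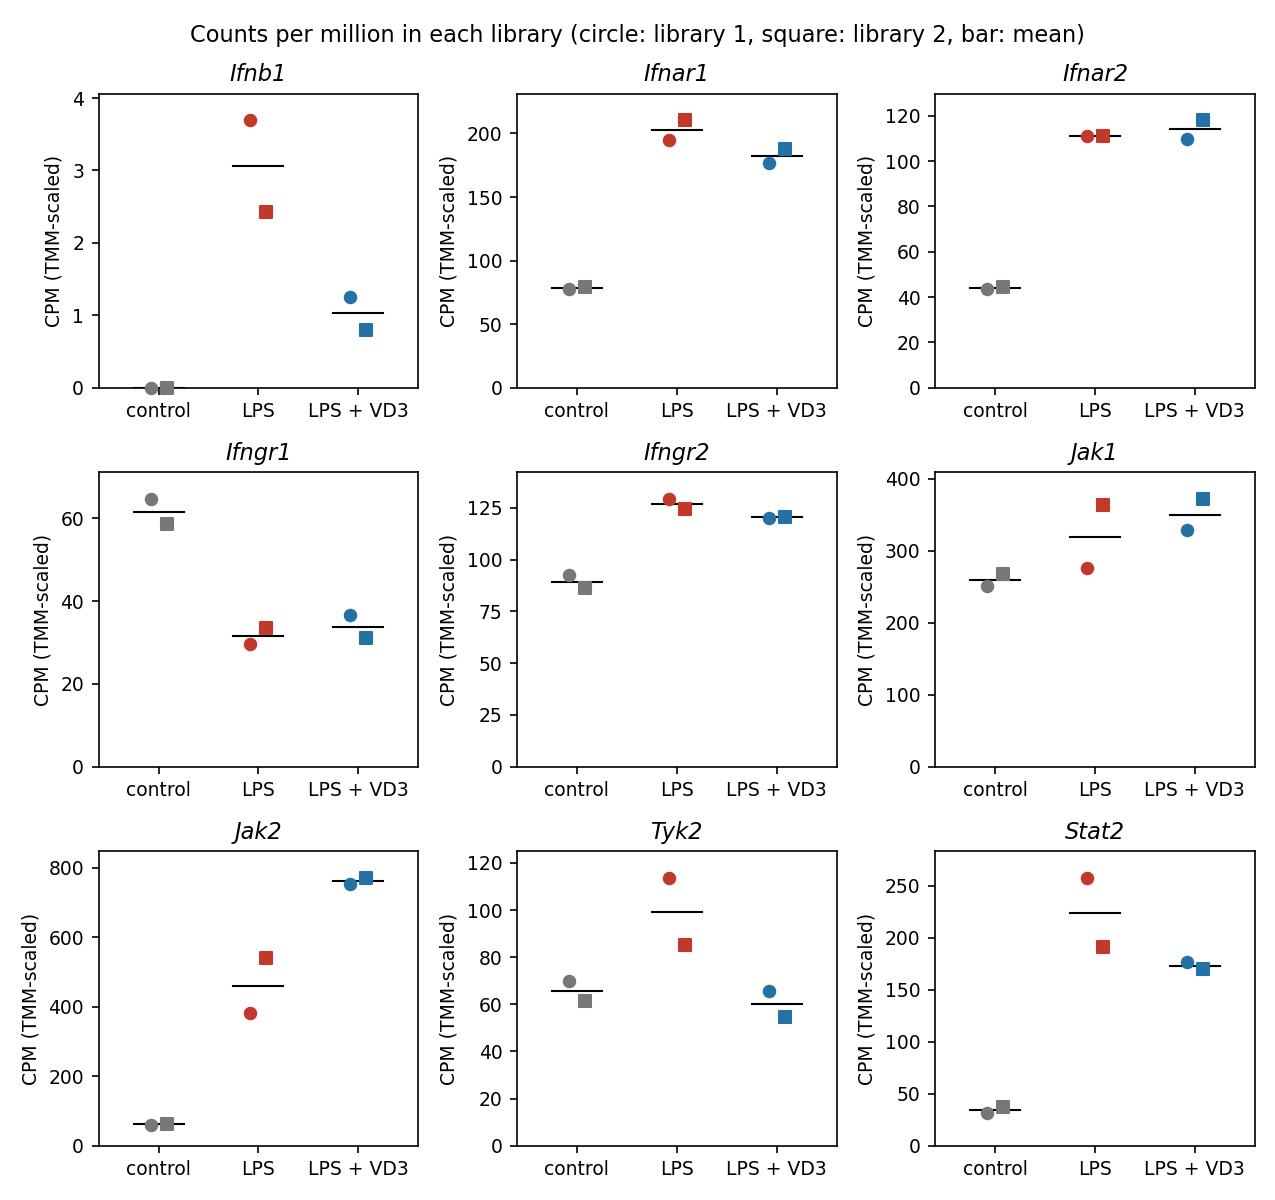
TMM-scaled CPM of each of the 9 genes (vertical axis from 0, own scale per gene) in control, LPS and LPS + VD3 libraries; circles are library 1, squares library 2 and bars the group mean. Ifnb1 sits at 0 in control, Ifngr1 is lower in all 4 treated libraries, and Jak2 climbs from 60.1 and 61.9 CPM in control to 754 and 770 in LPS + VD3.

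Among the kinases, Jak2 had the largest response. It was at 60.1 and 61.9 CPM (control), 381 and 540 CPM (LPS) and 754 and 770 CPM (LPS + VD3), so the 3 groups did not overlap. After LPS its log2 fold change was 2.92 ± 0.19, or 7.55-fold (edgeR adjusted p = 2.22e-06). Tyk2 was at 69.7 and 61.4 CPM (control), 114 and 85.0 CPM (LPS) and 65.7 and 54.7 CPM (LPS + VD3). It rose by 0.60 ± 0.19 after LPS (edgeR adjusted p = 0.0351), a call that did not hold without LPS 1: there the fold change was 0.36 (adjusted p = 0.0984). The Tyk2 call was also lost without control 1 or 2 (0.125 and 0.273), without LPS + VD3 1 or 2 (0.0611 and 0.0665), with no filter beyond 1 count (0.0677) and with the LPS + VD3 libraries kept out of the fit (0.0584). Without scaling (0.239) and in the fits of the deposited log2 values (0.251 and 0.253) it was lost as well. Of the exon length of Tyk2, 8.07% overlaps an annotated antisense RNA, 1700084C06Rik, and the strand setting of the counting is not given. Jak1 was at 251 and 267 CPM (control), 276 and 364 CPM (LPS) and 329 and 372 CPM (LPS + VD3). The LPS libraries lay above control, but the fold change of 0.30 ± 0.17 did not pass (edgeR adjusted p = 0.201), and the 95% interval of the difference ran from -0.07 to 0.68. Without LPS 1 the fold change was 0.47 and without LPS 2 0.09. Without scaling beyond library size it was 0.008 (edgeR adjusted p = 0.975), and in both limma fits of the deposited log2 values 0.006 (0.981).

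With the kinases set side by side per exon length, their mix changed. The sum of Jak1, Jak2, Jak3 and Tyk2 was 58.0 and 59.2 CPM per kb (control), 132 and 171 (LPS) and 205 and 213 (LPS + VD3). Jak2 held 20.6% and 20.8% of that sum (control), 57.3% and 62.7% (LPS) and 73.0% and 71.8% (LPS + VD3). Jak1 held the most in control, 59.8% and 62.5%, and 22.1% to 29.5% in the treated libraries. The share of Tyk2 was 17.5% and 15.1% (control), 12.5% and 7.23% (LPS) and 4.66% and 3.74% (LPS + VD3). Jak3, the kinase of the common gamma chain in lymphocytes, held at most 2.10% in any library. With 2 libraries against 2, an exact permutation test cannot go below p = 0.333, so these shares are given without one. The kinases differ in transcript GC (44.2% for Jak2 and 56.0% for Tyk2), and the part of GC in these shares was not tested.

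**Figure D2:**
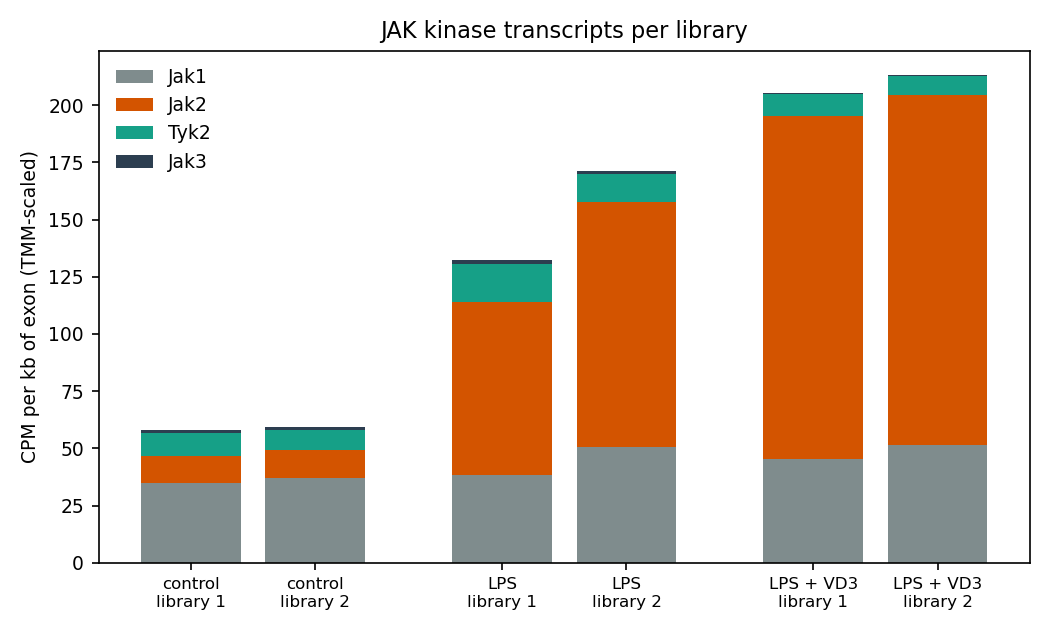
Stacked bars from 0 of Jak1, Jak2, Tyk2 and Jak3 transcripts in TMM-scaled CPM per kb of exon, 1 bar per library in 3 groups. The Jak2 segment is 20.6% and 20.8% of the bar in control and 73.0% and 71.8% in LPS + VD3, while the Jak1 segment lies between 34.7 and 51.45 CPM per kb.

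Stat2, the interferon-specific STAT, was at 31.0 and 37.2 CPM (control), 257 and 191 CPM (LPS) and 176 and 169 CPM (LPS + VD3). Every treated library was above both control libraries, and LPS 1 stood above the other treated libraries. Its log2 fold change after LPS was 2.72 ± 0.19, or 6.57-fold (edgeR adjusted p = 3.82e-06). Of 7 tested genes among the other JAK and STAT genes and Irf9, 3 rose and none fell after LPS, with a median of 0.38. Over all genes tested 15.7% rose and 16.2% fell. Among them Irf9, the DNA-binding partner of Stat2, rose by 2.76 ± 0.21 (edgeR adjusted p = 6.61e-06), and Stat5a, which acts downstream of GM-CSF, by 1.28 ± 0.17 (edgeR adjusted p = 0.00022). Among 6712 genes with a mean log2 CPM of at least 4, those whose pattern over the 6 libraries was most like that of Stat2 were Mtmr14, Ms4a6d, H2-T24, Ehd1 and Rbm7, with Pearson's r of log2 CPM between 0.9968 and 0.9985. The points are 6 libraries in 3 groups, and 539 genes had r over 0.95, so this is a description only. H2-T24 belongs to a family of near-identical genes and its count is uncertain.

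Position was shared by 3 of the 4 receptor chains. On mm10, with GENCODE M21, Ifnar2 lies on chromosome 16 at 91372783 to 91405589, Ifnar1 at 91485238 to 91507441 and Ifngr2 at 91547072 to 91565623, all on the plus strand, and Il10rb lies between the first pair at 91406164 to 91425834. Il10rb rose by 1.23 ± 0.16 after LPS (edgeR adjusted p = 0.000224), close to the values of its neighbours Ifnar2 and Ifnar1. Within 200 kb on either side of this cluster 12 genes were tested, of which 5 rose and 1 fell, beside 15.7% and 16.2% of all genes tested. Of the 5, 4 are the receptor genes around which the window was drawn. Besides them only Itsn1, an endocytic scaffold, rose, by 1.11 ± 0.19, and Gart, an enzyme of purine synthesis, changed by -0.84 ± 0.15. The gene next to Ifngr2, Tmem50b, was at -0.06 ± 0.16. Ifngr1, the chain that fell, lies apart on chromosome 10 at 19591949 to 19610229, where Stat2 lies at 128270559 to 128292849. Ifnb1, on chromosome 4 at 88522025 to 88522774, is the shortest of the 9 with 750 exonic bases, and Jak1 lies on the same chromosome at 101152367 to 101265282. Jak2 lies on chromosome 19 at 29251828 to 29313080 and Tyk2 on chromosome 9 at 21104068 to 21131243.

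The order of levels per exon length changed with treatment. In control Jak1 led with 35.8 ± 1.62 CPM per kb (SD, n = 2), followed by Ifngr2 at 23.7 ± 1.12 and Ifngr1 at 21.6 ± 1.51, which did not differ beyond their spread. Ifnar2 (13.2 ± 0.151) and Ifnar1 (13.2 ± 0.166) were alike, with Jak2 at 12.1 ± 0.244 and Tyk2 at 9.55 ± 0.859 below them and Stat2 at 5.75 ± 0.737. In LPS Jak2 led with 91.6 ± 22.3, ahead of Jak1 at 44.3 ± 8.64 and Stat2 at 37.8 ± 7.87, which overlapped. Ifnar1 (34.1 ± 1.84), Ifngr2 (33.6 ± 0.912) and Ifnar2 (33.3 ± 0.0327) did not differ beyond their spread, and Tyk2 (14.5 ± 2.94) and Ifngr1 (11.1 ± 1.00), which overlapped in their spread, and Ifnb1 (4.08 ± 1.19) followed. In LPS + VD3 Jak2 was at 151 ± 2.25 and Jak1 at 48.5 ± 4.22. Ifnar2 (34.2 ± 1.73), Ifngr2 (32.0 ± 0.0850), Ifnar1 (30.7 ± 1.36) and Stat2 (29.1 ± 0.797) came next, where Ifnar2 lay above Ifngr2 by more than their spread and the later neighbours did not differ beyond it. Ifngr1 (11.9 ± 1.39), Tyk2 (8.77 ± 1.13) and Ifnb1 (1.37 ± 0.434) were lowest. Ifnb1 moved from undetected to the lowest level of the 9 in both treated groups.

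Genes around this pathway were counted in lists after LPS, where 15.7% of all genes tested rose and 16.2% fell. On the route from Tlr4 to Ifnb1, 10 of 17 tested genes rose and 3 fell, with a median of 0.88. Smallest in p were the NF-kB subunit Nfkb1 (2.96 ± 0.15), the LPS coreceptor Cd14 (4.44 ± 0.26) and Irf7 (6.20 ± 0.41), a transcription factor of interferon genes. All 20 type I interferon target genes rose, with a median of 7.01. Ifit1, an antiviral effector, went from 3 and 2 counts in control to 4103 and 3765 counts with LPS, and the radical enzyme Rsad2 from 2 and 4 counts to 2902 and 2964. The chemokine Cxcl10 went from 1 and 1 counts to 4231 and 2990. With so few control counts, fitted fold changes of these genes move with the prior count, and the median of the list does too. Of 11 tested interferon gamma target genes 10 rose and 1 fell, with a median of 4.14 (3.80 with Nos2, at 0 counts in control, set to its floor). Smallest in p were the guanylate-binding proteins Gbp5 (8.24 ± 0.22) and Gbp2 (4.71 ± 0.20) and the immunity-related GTPase Irgm1 (3.54 ± 0.19). Many genes of these lists answer to both kinds of interferon, and those of the IFIT and GBP families share sequence, so their counts are uncertain where reads could be split. Of 14 negative regulators 8 rose and 1 fell (median 0.53), led by the receptor inhibitor Socs3 (5.24 ± 0.26), by Usp18, which blocks Ifnar2 (4 and 0 counts in control, 332 and 201 with LPS), and by Cish (2.13 ± 0.22). Of 12 other chains of receptors that signal through JAK kinases 6 rose and 2 fell (median 0.61). The interleukin-6 receptor chain Il6ra changed by -2.15 ± 0.25, while Csf2rb2 (1.20 ± 0.15), which shares most of its sequence with the GM-CSF receptor chain Csf2rb and is uncertain for that, and Il10rb rose.

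The second comparison, LPS + VD3 against LPS, asked what VD3 added. Of the 9 genes 0 passed edgeR's test, where 3.83% of all genes tested did, 2.25% upward and 1.59% downward. These were 411 genes. A fit with a block for the replicate number gave 1152 and is shown here because the labels name each LPS + VD3 library after the number of an LPS library without saying what the pair shares. At an unadjusted p under 0.05 there were 3 (Ifnb1, Jak2 and Tyk2), DESeq2 called 2 (Jak2 higher and Tyk2 lower) and limma-voom 1 (Jak2). The 9 genes had a median of -0.07, beside 0.00 over all genes tested. The libraries of both groups did not overlap for 6 of the 9 genes, beside 48.1% of all genes tested.

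Jak2 lay nearest to the threshold. Its 754 and 770 CPM in LPS + VD3 were above the 381 and 540 CPM in LPS, a log2 fold change of 0.73 ± 0.18, or 1.65-fold (edgeR adjusted p = 0.0512). The value passed with DESeq2 (adjusted p = 0.00926), limma-voom (0.045), the block (0.00911) and GC offsets (0.0112), and without either LPS library. Without LPS 1 it was 0.49 (adjusted p = 0.0407) and without LPS 2 1.00 (0.000148). It did not pass with no filter (0.164), with the control libraries kept out of the fit (0.12), without either control library (0.122 and 0.121) or without either LPS + VD3 library (0.186 and 0.36). Nor did it pass with RLE size factors in place of TMM (0.0587) or without scaling beyond library size (0.0544). In the limma fits of the deposited log2 values it did not pass either (0.0509 and 0.0517). Over all 17 alternatives the fold change lay between 0.49 and 1.00.

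Tyk2 went the other way. Its 65.7 and 54.7 CPM in LPS + VD3 were below the 114 and 85.0 CPM in LPS and overlapped the 69.7 and 61.4 CPM of control. The log2 fold change against LPS was -0.72 ± 0.19 (edgeR adjusted p = 0.072). Tyk2 passed with DESeq2 (adjusted p = 0.0309), with the block (0.0119) and with block and GC offsets together (0.0278). It did not pass with limma-voom (0.0774), with no filter (0.177) or with the control libraries kept out of the fit (0.138). Without scaling beyond library size (0.063) and in the limma fits of the deposited log2 values (0.0702 and 0.0709) it did not pass either. The fold change was -0.91 without LPS 2 and -0.51 without LPS 1. Over all 17 alternatives its fold change lay between -0.91 and -0.44.

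Transcript GC moved with this comparison. Across 10659 genes with a GC value, the fold change of LPS + VD3 against LPS had a Spearman's rho of -0.509 with GC, against 0.0972 for LPS against control. Jak2 has a GC content of 44.2% and lies in decile 2 of genes, counted from the lowest GC, whose median fold change was 0.22 with quartiles of 0.02 and 0.44. Tyk2 has 56.0% and lies in decile 9, with a median of -0.31 and quartiles of -0.58 and -0.05. Jak2 was thus above the upper quartile of its decile and Tyk2 below the lower quartile of its own. With loess GC offsets per library the fold change was 0.53 for Jak2 (edgeR adjusted p = 0.0112) and -0.44 for Tyk2 (0.0548). The difference between the LPS libraries themselves (LPS 2 minus LPS 1 in log2 CPM) was 0.50 for Jak2, -0.42 for Tyk2, -0.43 for Stat2 and 0.40 for Jak1, and lay between -0.06 and 0.18 for the 4 receptor chains.

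**Figure D3:**
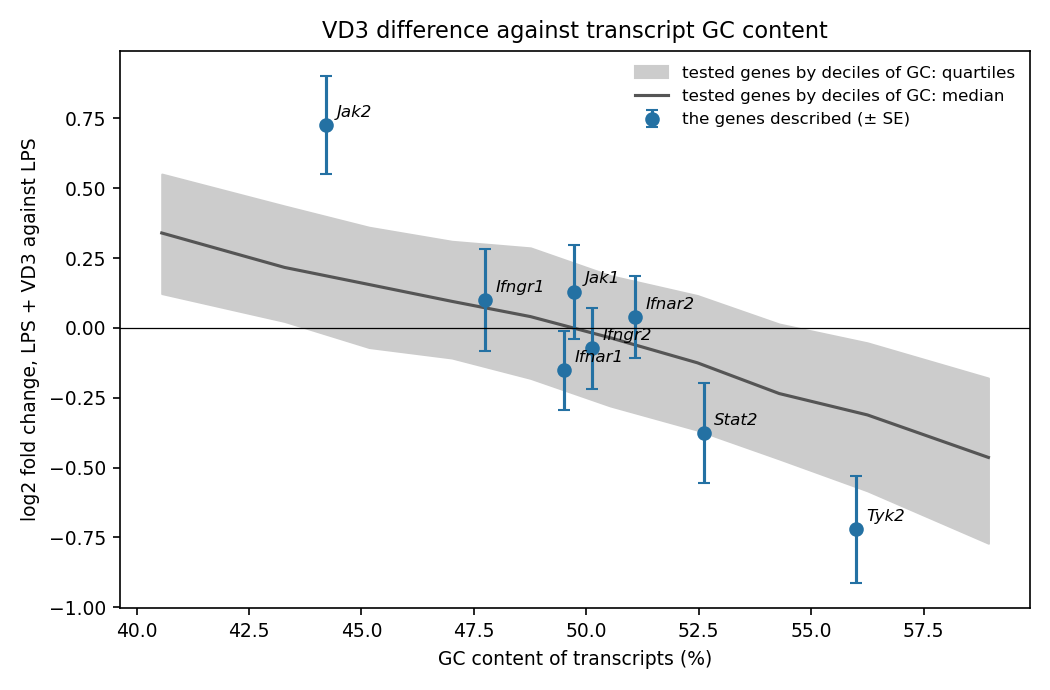
Log2 fold change of LPS + VD3 against LPS (vertical axis, ± SE) against the GC content of transcripts in percent for 8 of the genes, Ifnb1 left out for its few counts. The line and band are the median and quartiles of all tested genes in deciles of GC, falling from 0.34 to -0.46; Jak2 lies above the band and Tyk2 below it.

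Of the other genes, Ifnb1 had the largest difference in size and the fewest counts. It went from 30 counts over both LPS libraries to 10 over both LPS + VD3 libraries, and each LPS library held more than each LPS + VD3 library. The ratio was 0.334, with a 95% exact counting interval of 0.146 to 0.702. This counting interval leaves out the spread between libraries. The edgeR fit, which includes that spread, gave a log2 fold change of -1.56 with a 95% interval of -2.77 to -0.35. That interval is not adjusted for the number of genes tested. After adjustment over all genes tested Ifnb1 did not pass (edgeR adjusted p = 0.147). Without LPS 2 its fold change was -1.83. Stat2 was at -0.38 ± 0.18 (edgeR adjusted p = 0.246), with LPS + VD3 at 176 and 169 CPM below both LPS libraries. Without LPS 2, where LPS 1 stands alone, it passed at -0.57 (adjusted p = 0.00675). The 95% interval of the difference ran from -0.47 to 0.17 for Ifnar1, from -0.29 to 0.37 for Ifnar2, from -0.31 to 0.51 for Ifngr1, from -0.40 to 0.25 for Ifngr2 and from -0.24 to 0.51 for Jak1. Differences beyond these bounds were not seen in the receptor chains or Jak1, and smaller ones could not be told from 0 with 2 libraries per group.

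**Figure D4:**
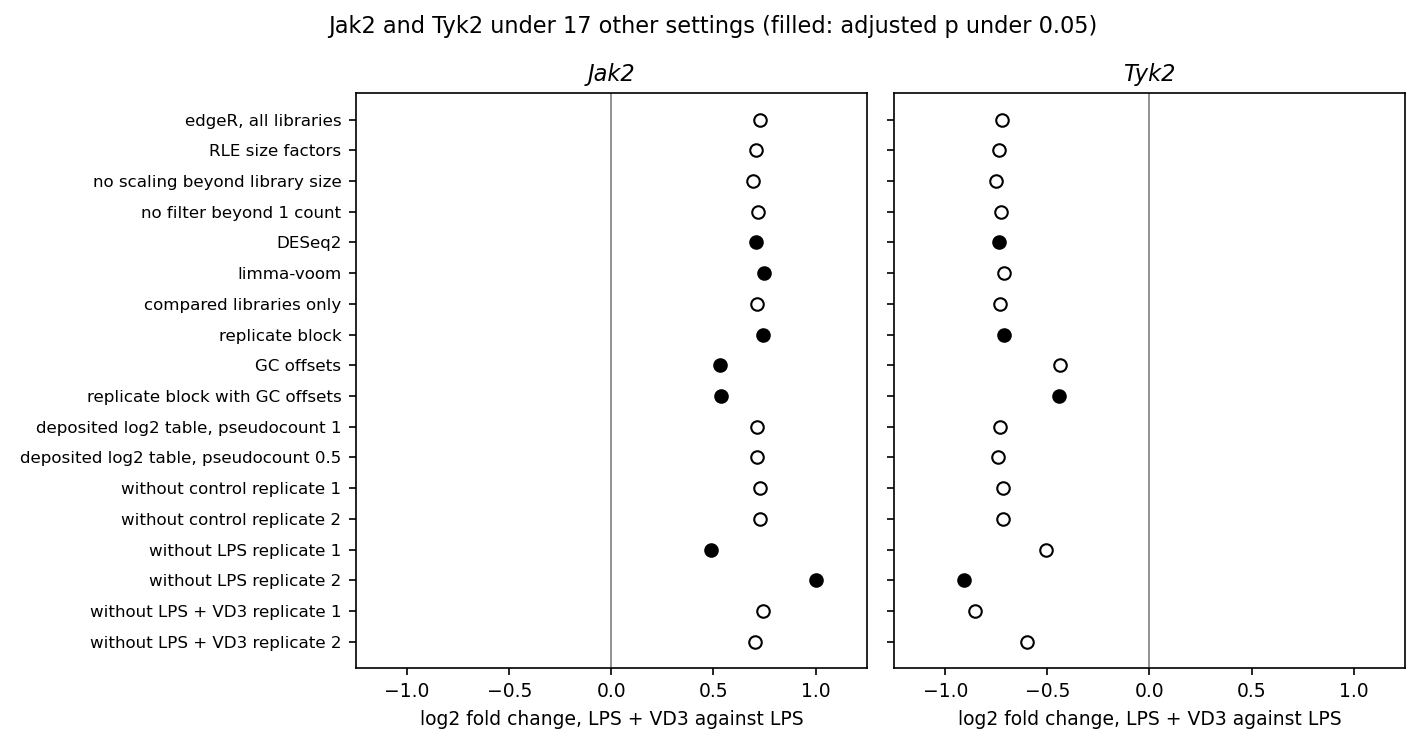
Log2 fold change of Jak2 and Tyk2 in LPS + VD3 against LPS (horizontal axes) in the edgeR fit of all libraries and under 17 alternatives (rows); filled points have an adjusted p under 0.05. Jak2 stays between 0.49 and 1.00 and Tyk2 between -0.91 and -0.44, while their calls change between settings.

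Around the 9 genes, a few genes differed between LPS + VD3 and LPS, where 2.25% of all genes tested rose and 1.59% fell. Of 20 type I interferon targets 4 fell and none rose (median -0.56): Mx1 at -0.93 ± 0.17, Ifit2 at -0.90 ± 0.17, Ifit3 at -0.86 ± 0.19 and Irf7 at -1.15 ± 0.27 (log2; edgeR adjusted p between 0.0147 and 0.0461). Of 11 interferon gamma targets 3 fell (median -0.28), the transcription factor Irf1 (-1.23 ± 0.19), the GTPase Igtp (-1.22 ± 0.20) and Socs1 (-3.07 ± 0.57), an inhibitor of JAK kinases that interferon induces. Of 14 negative regulators 2 fell (median -0.13), Cish (-1.18 ± 0.22) and again Socs1, while Pias3 was at -0.75 ± 0.25 (edgeR adjusted p = 0.127). On the route to Ifnb1, 1 of 17 genes rose, the Tlr4 adaptor Ticam2, by 1.06 ± 0.16, and Irf7 fell, with Ikbke, a kinase of Irf3, at -0.63 ± 0.20 (0.116). Of 7 other JAK and STAT genes and Irf9 only Stat5a changed, by -0.81 ± 0.16 (edgeR adjusted p = 0.0241; -0.54 and 0.0509 with GC offsets), and Jak3 was at -1.38 ± 0.39 (0.0876). Of 12 other receptor chains 1 rose, the shared interleukin-6 family chain Il6st, by 1.14 ± 0.18, with Lifr at 1.50 ± 0.36 (0.0513). Il10rb was at -0.19 ± 0.16. Each call of this paragraph was lost without LPS + VD3 1 (adjusted p between 0.0902 and 0.212) and without LPS + VD3 2 (0.0889 to 0.405). The calls of Irf7, Stat5a and Ifit3 did not hold without control 1 or 2 either, and that of Irf7 without LPS 1 (-0.62, 0.0539), where Socs1 was at -2.06. With no filter beyond 1 count, those of Cish, Ifit2, Ifit3, Irf7, Mx1, Socs1 and Stat5a were lost. Without LPS 2, where LPS 1 stands alone, more of the 20 type I targets were called lower, but calls rose over all genes tested as well.

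The third comparison, LPS + VD3 against control, set both agents together against the same control libraries as the first. Of the 9 genes 6 rose and 1 fell, where 35.0% of all genes tested changed, 17.7% upward and 17.3% downward. The median of the 9 was 1.22, beside 0.01 over all genes tested, and for 8 of them the libraries of both groups did not overlap, beside 75.8% of all genes tested. Jak2 rose by 3.64 ± 0.20, or 12.5-fold (edgeR adjusted p = 5.41e-07), and Stat2 by 2.34 ± 0.19, or 5.06-fold (9.26e-06). Ifnar1 and Ifnar2 rose by 1.22 ± 0.15 and 1.37 ± 0.15, and Ifngr1 changed by -0.86 ± 0.18 (edgeR adjusted p = 0.00384, and 0.0623 without control 1). Ifnb1 was observed 4.11-fold above the control floor, and its exact 95% counting interval started at 2.76-fold (10 counts against 0, edgeR adjusted p = 0.0163). Its call was lost without either control library (0.0729 and 0.079) and without either LPS + VD3 library (0.0883 and 0.0566). Ifngr2 rose by 0.43 ± 0.15 (edgeR adjusted p = 0.0431), a call lost without any 1 of the control or LPS + VD3 libraries (0.125 to 0.33), without scaling (0.608), with no filter (0.0502), with DESeq2 (0.0866) and in the deposited log2 values (0.571 in both fits).

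Jak1 and Tyk2 did not pass against control. Jak1 was at 0.44 ± 0.17 (edgeR adjusted p = 0.07). It passed with the block (0.0269), with GC offsets (0.0238) and with the LPS libraries kept out of the fit (0.0076). It did not pass with DESeq2 (0.0907), limma-voom (0.0706) or no filter (0.121). Without scaling beyond library size the fold change was 0.11 (0.633), and in both limma fits of the deposited log2 values 0.11 (0.612). With 1 library left out it lay between 0.32 and 0.52. Tyk2 was at -0.12 ± 0.19 (edgeR adjusted p = 0.651), with a 95% interval of -0.55 to 0.30, and its sign turned with GC offsets (0.09).

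In the lists, 13 of 17 genes of the route to Ifnb1 rose and 1 fell. Of the type I targets 19 of 20 rose and none fell, and of the interferon gamma targets 9 of 11 rose and 1 fell. The medians were 0.94, 6.30 and 3.11. Over all genes tested 17.7% rose and 17.3% fell. The smallest p on the route were again those of Nfkb1 (2.92 ± 0.15), Cd14 (4.07 ± 0.25) and Irf7 (5.05 ± 0.43). Ifit1 had 3203 and 3466 counts with LPS + VD3, Cxcl10 3289 and 3377 and Rsad2 2529 and 2565, and Gbp5, Gbp2 and Irgm1 rose by 8.18 ± 0.22, 4.85 ± 0.20 and 3.11 ± 0.19. Of 14 negative regulators 7 rose and 1 fell, among them Socs3 (4.63 ± 0.25), Usp18 (177 and 161 counts) and the JAK phosphatase Ptpn2 (0.82 ± 0.17). The Ptpn2 call was lost without control 1 or 2 (0.0507 and 0.0631) or LPS + VD3 2 (0.0516). Of 7 other JAK and STAT genes and Irf9, 2 rose, among them Irf9 by 2.42 ± 0.21, and Stat5a was at 0.47 ± 0.17 (edgeR adjusted p = 0.0546). Of 12 other receptor chains 7 rose and 1 fell, among them Csf2rb2 (1.05 ± 0.15), Il10rb (1.04 ± 0.16) and Il10ra (1.23 ± 0.20).

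**Figure D5:**
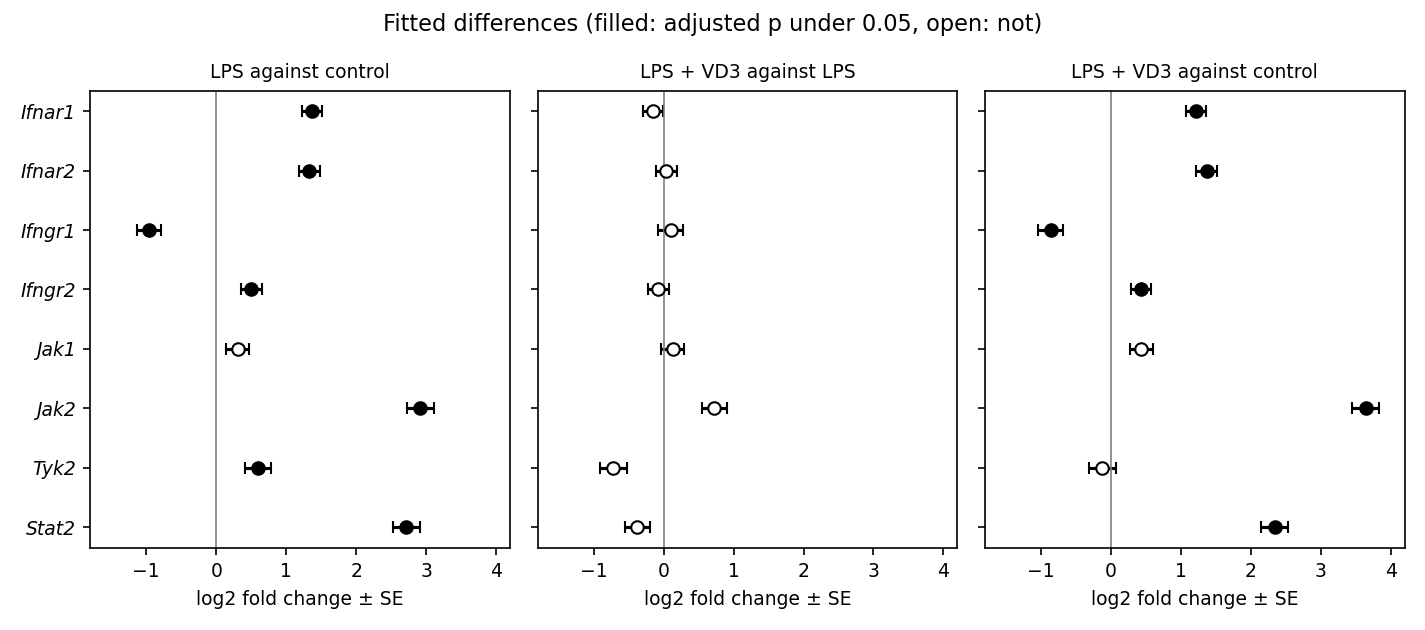
Log2 fold changes ± SE (horizontal axes) of 8 of the genes in the 3 comparisons, from the edgeR fit of all 6 libraries; filled points passed at an adjusted p of 0.05 and open points did not. Jak2 and Stat2 lie farthest right of 0 against control in both treated groups, Ifngr1 lies left of 0, and no point is filled for LPS + VD3 against LPS.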

How the data were processed

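RNA-seq counts of 6 libraries, 2 each of control, LPS and LPS + VD3, were used, with groups taken from the labels. The authors deposited raw counts per gene. The tools TopHat2 and edgeR and the build mm10 stand in the submitters' processing notes with no versions, and the counting program, annotation and strand setting are not stated in the sources used here. The authors' second table holds log2 values, which equal log2(CPM + 1) of the counts within 0.00423. It lists 8 of the 9 genes and was used only in an alternative.

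Counts were tested with edgeR 4.0.16 (R 4.3.3): filterByExpr (minimum count 10, minimum total 15) left 10724 genes, libraries were scaled by TMM, and 1 quasi-likelihood fit covered the 3 groups (3 residual and 7.01 prior degrees of freedom). P-values were Benjamini-Hochberg adjusted over all genes tested, with a threshold of 0.05. SEs come from dividing each log2 fold change by the root of its F statistic. Levels per length divide TMM-scaled CPM by the exon length of GENCODE M21. The fit was tested on simulated data with 2 libraries per group and the same dispersion for every gene and group. In LPS + VD3 against LPS it recovered 63.5% of genes changed by 1 log2 unit and 97.0% of those changed by 2 among 10616 genes. The wider spread and the GC trend of the real LPS libraries were not simulated, so recovery in these data was not measured.

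Alternatives were other scaling, no filter, DESeq2 1.42.0, limma 3.58.1 (voom, and the deposited log2 values), the compared libraries only, GC offsets, the replicate number as a block, and each library left out. The genes, lists and tests were chosen with earlier results of these data known. All 9 genes are named in every comparison and up to 3 genes with the smallest p from each further list. 1 of these list genes is not reported here. Tmem50b, Itsn1, Gart, Ifna4, Ifng, Ifnl2, Ifnl3, Ifna2, Ifna6, Ifnz, Ifnk, Ifnlr1, Nos2 and the marker genes were named after their values were seen. Promoter sequences are from RefSeq (GRCm38.p6) and matched all 9 genes by symbol.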

Additional observations from a re-analysis of the deposited data

How the results depend on the processing

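The counts of genes called and the fold changes of the 9 genes and of the named list genes were recomputed under 14 to 17 alternatives. The JAK shares, the ratios per length, the genes most like Stat2 and the medians were not recomputed. The shares and ratios are taken within a library, so scaling of libraries cancels in them, but GC offsets would not. Against control, the 8 genes called after LPS kept their directions in all of them (Ifnb1 in the 15 that hold it), with 4 to 8 called higher and 1 lower. The count called higher was 4 in the limma fits of the deposited log2 values (pseudocount 1 or 0.5), which do not list Ifnb1. Over all genes, 1940 to 4829 passed in LPS against control when 1 library was left out (fewest without either control library), and 2126 to 5410 in LPS + VD3 against control, where 0 or 1 of the 9 genes was called lower (0 without control 1). When a library is left out, the lone one is assumed to vary like the other groups.

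The difference between LPS + VD3 and LPS depended more on the settings. It had 411 genes, and 169 without the filter, 258 without the control libraries in the fit, 831 with GC offsets, and 55 to 3670 with 1 library left out (94 and 55 without LPS + VD3 1 and 2, 3670 without LPS 2, 246 and 247 without control 1 and 2). Of the 9 genes 0 to 1 were then called higher and 0 to 3 lower. Jak2 was the 1 called higher with DESeq2, limma-voom and GC offsets, and Tyk2 the 1 called lower with DESeq2. Signs turned for values near 0: Jak1 ranged from -0.06593 (without LPS 1) to 0.3491, Ifngr1 from -0.02239 (without LPS + VD3 1) to 0.2079, and Ifnar2 from -0.02011 (without LPS + VD3 2) to 0.09099. With GC offsets Gart was at 0.03178 and, against control, Tyk2 at 0.09265. The cause was not tested.

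Replicate numbers were tried as a block. Deviations of same-numbered libraries correlated at 0.172 (control and LPS), 0.0894 (control and LPS + VD3) and 0.196 (LPS and LPS + VD3), and the labels name the LPS + VD3 libraries after the numbers of the LPS libraries without saying what they share, so a pairing is possible but not established. With the replicate block 1152 genes passed in LPS + VD3 against LPS, with 1 of the 9 higher (Jak2, adjusted p = 0.00911) and 1 lower (Tyk2, 0.0119), and Jak1 passed against control in LPS + VD3 (0.0269). With block and GC offsets together there were 1298, again 1 higher and 1 lower, Jak1 passed in LPS against control (0.0293), with Gart at 0.03254 and Tyk2 against control at 0.09205. Of the 20 type I targets, 9 to 20 were called higher against control in either treated group under these alternatives (the log2 table lists 10), and 0 to 16 lower in LPS + VD3 against LPS. At this depth Ifnb1 rests on 40 counts in all.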
